A study of Mus musculus with 6 samples.

Results

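The genes described here are 45 genes of G2, mitosis and cytokinesis, chosen by name for their known roles, with earlier results of these data known. They were followed in RNA-seq of cultured primary hepatocytes of the mouse, which are the main functional cell of the liver. All 45 were found among the 41388 Ensembl genes of the expression table, and 41 of them had a mean of at least 0.5 RPKM (reads divided by gene length in kilobases and by library size in units of 1000000 reads) over the 6 libraries, the level required for a test. The hepatocytes came from C57BL/6J mice, were kept overnight in growth medium after collagenase digestion, and were then treated with adenovirus at about 1000000 viral particles per 1000000 cells. In 3 libraries (β-gal replicates 1, 2 and 3) the virus encoded beta galactosidase, the control protein, and in 3 (Aloxe3 replicates 7, 8 and 9) it encoded ALOXE3, an epidermal-type lipoxygenase. RNA was taken 24 h later in both groups. All libraries thus carried an adenovirus and none came from untreated cells, and neither the sex nor the age of the mice was given in the sources used here. The labels do not say whether replicates came from separate mice or cultures, so p-values measure the spread between these samples, which may be technical. The question was whether transcripts of the machinery of mitosis differed between Aloxe3 and β-gal hepatocytes, as some transcripts of DNA replication did.

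A cell that has copied its DNA enters mitosis when CDK1, bound to cyclin A or cyclin B, is activated. The spindle is then built by motor proteins, kinetochores attach the chromosomes to it, a checkpoint holds back anaphase until all are attached, and a ring of actin and myosin divides the cell. Most of these transcripts are made in G2 and M under the transcription factors B-Myb and FoxM1 and are repressed in resting cells by the DREAM complex. Adult hepatocytes are mostly quiescent, re-enter the cycle after loss of liver mass, and often skip cytokinesis, which leaves many of them binucleate or polyploid.

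The library size behind the RPKM values, derived from their whole-number steps, was 25521908 to 30399198 reads in the Aloxe3 libraries and 29575553 to 32431318 in the β-gal libraries. A single read over 1 kb equalled 0.0392 RPKM in the library with the fewest reads. Aloxe3 itself had 2.04, 2.06 and 1.74 RPKM in the β-gal libraries and 42.3, 45.8 and 56.3 RPKM in the Aloxe3 libraries, as their labels say. Of the hepatocyte markers, Alb had a mean of 4524 RPKM in β-gal cells, and Apoa1 and Apob each had 243 RPKM. Serpina1a (52.2 RPKM), Hnf4a (26.9 RPKM) and Fah (23.4 RPKM) came next. Cyp2e1 (2.17 RPKM), Asgr1 (1.65 RPKM) and Cps1 (0.985 RPKM) were lower but were tested. Tat (0.278 RPKM) and Pck1 (0.0708 RPKM) were under the level for a test. Of the 6 cholangiocyte and progenitor markers, Spp1 (1463 RPKM), Cldn4 (627 RPKM), Krt19 (42.9 RPKM) and Sox9 (41.5 RPKM) were above that level. Krt7 (0.130 RPKM) and Epcam (0.426 RPKM) were under it. Of the macrophage markers Cd68 had a mean of 148 RPKM and Adgre1 of 1.67 RPKM, while Clec4f, specific to Kupffer cells, was at 0.047 RPKM. Of the endothelial markers Cdh5 was at 15.3 RPKM and Clec4g at 0.112 RPKM. Of the stellate and fibroblast markers Col1a1 was the highest at 2.37 RPKM, Col1a2 and Col3a1 were at 0.085 and 0.087 RPKM, and Lrat was listed at 0 in every library.

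Over the 12693 genes tested, 0.355% were higher in Aloxe3 hepatocytes past an adjusted p of 0.05 (limma on log2(RPKM + 1), Benjamini-Hochberg adjustment over all tested genes) and 0.0394% were lower. Of the 41 tested mitosis and cytokinesis genes 0 were past that threshold in either direction. At an unadjusted p under 0.05, 21 of the 41 were higher and 0 lower, against 7.31% and 5.42% of all tested genes. That count of 21 was 15, 9 and 12 without β-gal replicates 1, 2 and 3, and 8, 26 and 11 without Aloxe3 replicates 7, 8 and 9. It was 17 with the libraries rescaled to 1 median and 10 with quantile normalization. With voom, a count-based fit in limma on the derived reads, 5 of the 41 were higher past an adjusted p of 0.05, where 1.17% of all tested genes were. The 5 were Mki67, Ect2, Tpx2, Incenp and Top2a. For Mki67, Ect2 and Incenp the derived reads are known only up to a common factor.

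The fitted log2 fold changes (Aloxe3 against β-gal, on the log2(RPKM + 1) scale, on which differences of low values come out too small) of the 41 tested genes ran from 0.004 to 0.46 with a median of 0.16, where the median over all tested genes was 0.005. All 41 were above 0, as were 52.4% of all tested genes, although Ncapg was below 0 once the libraries were rescaled to the same median, and Cdc20, Cdca8, Ncapg, Smc2 and Ttk were below 0 with quantile normalization. The Aloxe3 libraries lay above all β-gal libraries, with no overlap, for 15 of the 41 genes, and 11.2% of all tested genes did so. They lay below all β-gal libraries for 0 of the 41, against 8.71% of all tested genes. In a fit with no filter on low values, which takes in all 45 genes, 45 were above 0, 18 had an unadjusted p under 0.05 and 0 an adjusted one. The exact permutation test for 1 gene, two-sided and with 3 libraries on each side, has 0.1 as its smallest possible p. In bulk RNA, more cells in mitosis and more transcript per cell cannot be told apart.

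Mki67, which encodes the Ki-67 protein that coats mitotic chromosomes and marks cycling cells, had the largest difference of the 41. It lies on chromosome 7 of GRCm38 (135689784 to 135716361, reverse strand). Its RPKM was 2.67, 2.36 and 2.63 in the β-gal libraries and 4.21, 3.29 and 4.24 in the Aloxe3 libraries, so that the groups did not overlap and Aloxe3 replicate 8 was the lowest of its group. The ratio of the means was 1.53, or 0.46 as a log2 fold change (SE 0.085, limma adjusted p = 0.0974, exact permutation p = 0.1). With voom on the derived reads the log2 fold change was 0.60 (adjusted p = 0.00155), and over all alternatives its adjusted p ranged from 0.00155 to 0.351.

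Ect2, which encodes the guanine nucleotide exchange factor that switches on RhoA at the cleavage site, had the smallest p after Mki67. Its RPKM was 1.93, 1.80 and 1.81 with β-gal and 2.40, 2.31 and 2.38 with Aloxe3. The groups did not overlap, and the Aloxe3 libraries lay within 0.1 RPKM of each other. On the log2 scale the difference was 0.24 (SE 0.050, limma adjusted p = 0.138), and 0.35 with voom (adjusted p = 0.0361). The gene lies on chromosome 3 (27097222 to 27153878, reverse strand).

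Tpx2, on chromosome 2 (152847964 to 152895321), encodes the spindle factor that activates Aurora A. It had 2.25, 2.24 and 2.11 RPKM with β-gal against 2.96, 2.62 and 2.82 RPKM with Aloxe3, a log2 fold change of 0.25 (SE 0.054, limma adjusted p = 0.160). Incenp, the scaffold of the chromosomal passenger complex on chromosome 19 (9872296 to 9899551), had 8.98, 9.18 and 8.63 with β-gal and 10.3, 10.4 and 11.9 RPKM with Aloxe3 (log2 fold change 0.25, SE 0.058, limma adjusted p = 0.173). Top2a, the topoisomerase that untangles sister chromatids, on chromosome 11 (98992943 to 99024189), had 2.68, 2.41 and 2.70 RPKM against 3.58, 3.04 and 3.31 RPKM (log2 fold change 0.26, SE 0.063, limma adjusted p = 0.203). In all 3 genes the groups did not overlap. With voom the adjusted p was 0.0495 for Tpx2, 0.0457 for Incenp and 0.0229 for Top2a.

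**Figure D1:**
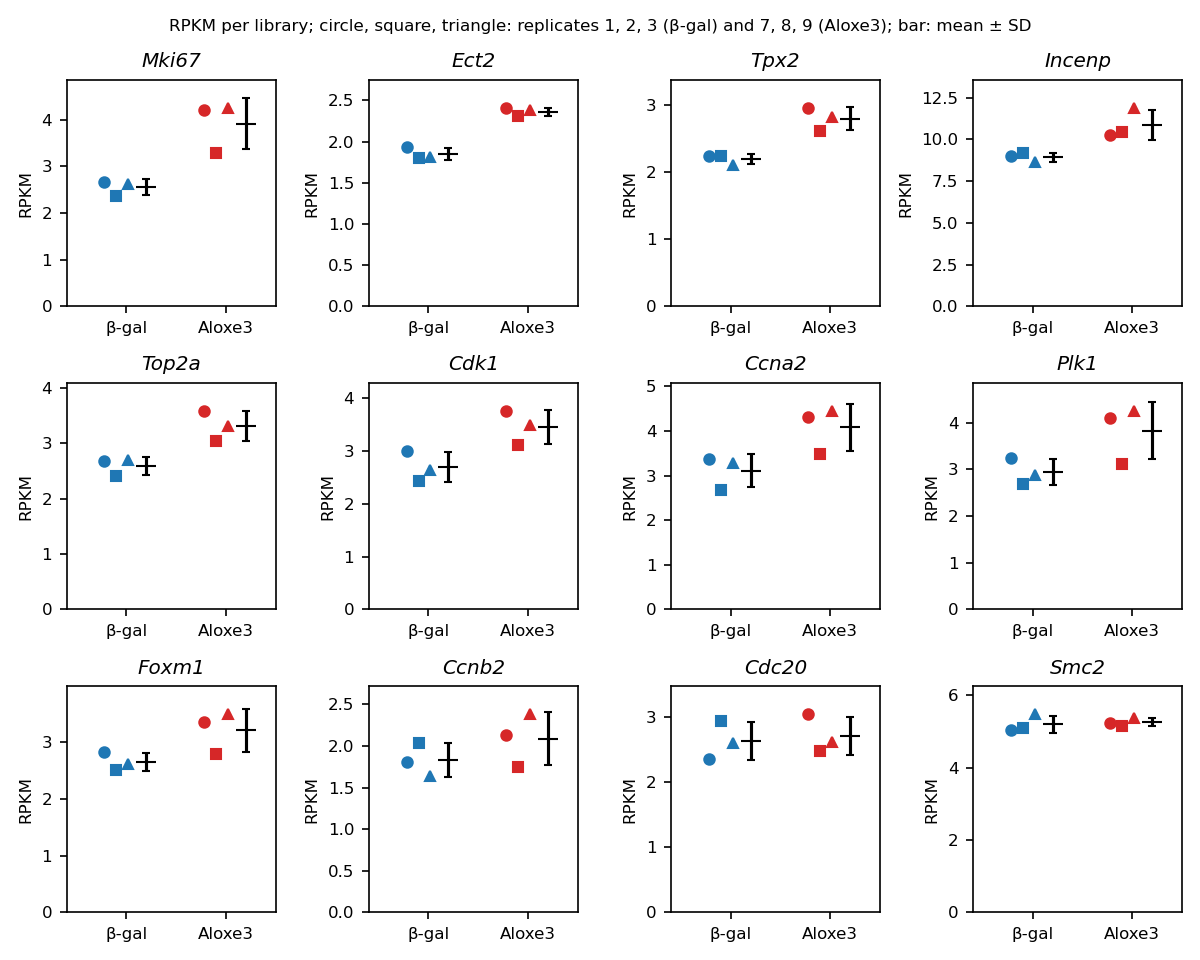
RPKM of 12 of the genes in each library (circles, squares and triangles are replicates 1, 2 and 3 with β-gal in blue and 7, 8 and 9 with Aloxe3 in red), with the mean ± SD of each group beside the points and each axis starting at 0. In Mki67, Ect2, Tpx2, Incenp, Top2a, Cdk1 and Ccna2 every red point is above every blue one, while in Cdc20 and Smc2 the groups overlap.

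Promoters of the genes that act in G2 and M often carry a cell cycle genes homology region (CHR), a hexamer bound by the MuvB core of the DREAM complex, and CCAAT boxes, which are bound by NF-Y. The RefSeq promoter table (GRCm38.p6) held 38 windows for 36 of the 45 genes, and the 250 bases before the start site were searched for TTTGAA or TTTAAA and for CCAAT, on both strands. The hexamer was in 52.63% of these windows and in 25.17% of all 32851 windows of that length in the table. A CCAAT box was in 76.32% of them and in 33.85% of all windows, and both motifs were in 47.37% of them and in 8.779% of all. The 250 bases before the start site are shown for the 4 genes with the smallest adjusted p among those with both motifs, 5′ to 3′ on the strand of the gene, with the hexamers and CCAAT boxes of either strand in capitals. The windows are chr7:135716380-135716629 for Mki67, chr3:27153879-27154128 for Ect2, chr11:99024190-99024439 for Top2a and chr10:69352913-69353162 for Cdk1, each on the reverse strand.
Mki67: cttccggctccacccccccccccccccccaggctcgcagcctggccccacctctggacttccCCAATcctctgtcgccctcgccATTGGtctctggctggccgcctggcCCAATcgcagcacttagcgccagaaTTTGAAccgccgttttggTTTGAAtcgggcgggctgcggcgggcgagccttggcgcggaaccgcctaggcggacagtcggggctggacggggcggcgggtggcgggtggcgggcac
Ect2: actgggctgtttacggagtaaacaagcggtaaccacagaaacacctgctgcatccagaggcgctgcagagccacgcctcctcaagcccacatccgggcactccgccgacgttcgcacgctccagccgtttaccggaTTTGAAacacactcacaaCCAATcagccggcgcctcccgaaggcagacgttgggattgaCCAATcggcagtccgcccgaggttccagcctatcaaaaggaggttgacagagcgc
Top2a: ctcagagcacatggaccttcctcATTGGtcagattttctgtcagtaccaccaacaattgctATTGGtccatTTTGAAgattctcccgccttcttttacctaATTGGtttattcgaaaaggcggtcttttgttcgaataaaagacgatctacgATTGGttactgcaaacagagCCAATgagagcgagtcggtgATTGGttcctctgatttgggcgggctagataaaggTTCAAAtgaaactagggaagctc
Cdk1: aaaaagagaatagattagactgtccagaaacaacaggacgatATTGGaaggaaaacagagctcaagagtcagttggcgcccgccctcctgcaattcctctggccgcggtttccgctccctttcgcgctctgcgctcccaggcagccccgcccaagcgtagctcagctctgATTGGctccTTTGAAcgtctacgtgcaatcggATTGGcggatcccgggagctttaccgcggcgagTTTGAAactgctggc
Mki67 has 2 hexamers and 3 CCAAT boxes in this window, Ect2 has 1 and 2, Top2a has 2 and 6, and Cdk1 has 2 and 3. Ncapg, with a log2 fold change of 0.004, and Cdc20, with 0.03, hold both motifs as well. The 15 tested genes with both motifs had a median log2 fold change of 0.17, the 18 tested genes with a window but not both had a median of 0.14, and the 8 tested genes with no window in the table had a median of 0.21. A match is a description of the letters only, and binding was not measured.

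The cyclins, kinases and phosphatase that drive entry into mitosis were next examined as a group of 7 genes, 5 of them tested. Ccna2, the cyclin of S phase and early mitosis, had 3.36, 2.68 and 3.28 with β-gal and 4.31, 3.49 and 4.44 RPKM with Aloxe3, with no overlap and a log2 fold change of 0.31 (SE 0.094, limma adjusted p = 0.285). Cdk1, its mitotic kinase partner, had 3.00, 2.43 and 2.65 RPKM against 3.75, 3.11 and 3.49 RPKM, again with no overlap (log2 fold change 0.27, SE 0.076, adjusted p = 0.257). Plk1, the kinase that acts from mitotic entry to cytokinesis, had 3.25, 2.69 and 2.89 RPKM against 4.11, 3.12 and 4.24 RPKM. Here Aloxe3 replicate 8 lay inside the β-gal range, and the difference on the log2 scale came to 0.29 (SE 0.10, adjusted p = 0.317). Ccnb2 (log2 fold change 0.12) and Aurka (0.11), the kinase of the centrosome, had groups that overlapped.

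Cyclin B1, the main mitotic cyclin, was almost at the floor. Ccnb1 had 0.301, 0.197 and 0.0962 with β-gal and 0.362, 0.250 and 0.233 RPKM with Aloxe3, from 12 to 41 reads per library, and was not tested. Its mean with β-gal of 0.198 RPKM compares with 1.83 RPKM for Ccnb2, per length of gene. Cdc25c, which encodes the phosphatase that activates CDK1, had 0.208, 0.238 and 0.192 RPKM against 0.343, 0.169 and 0.195 RPKM and was not tested either. In neither gene did the groups separate.

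The transcription factors of this programme lay higher in 2 of the Aloxe3 libraries and within the β-gal range in the third. Foxm1 had 2.83, 2.51 and 2.63 with β-gal and 3.36, 2.79 and 3.50 RPKM with Aloxe3 (log2 fold change 0.20, SE 0.075, limma adjusted p = 0.334). Mybl2, which encodes B-Myb, had 1.56, 1.36 and 1.45 RPKM against 1.88, 1.53 and 2.10 RPKM (log2 fold change 0.20, SE 0.083, adjusted p = 0.373). In both, Aloxe3 replicate 8 was the one inside the β-gal range.

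Of the chromosomal passenger complex, which corrects faulty attachments and later marks the cleavage plane, only Incenp of the 4 genes had groups that did not overlap. Aurkb, its kinase, had 2.74, 2.77 and 2.90 with β-gal and 3.55, 2.62 and 3.45 RPKM with Aloxe3. Birc5, which encodes survivin, had 2.10, 2.12 and 2.00 RPKM against 2.65, 1.94 and 2.64 RPKM. In both genes Aloxe3 replicates 7 and 9 lay above every β-gal library and replicate 8 below every one. Their log2 fold change was 0.14 in each case (SE 0.088 and 0.088, adjusted p = 0.546 for Aurkb and 0.537 for Birc5 from limma). Cdca8, which encodes borealin, had a log2 fold change of 0.02, with a 95% interval from -0.09 to 0.14.

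Among the 7 genes of the spindle checkpoint and of anaphase onset, Mad2l1 and Espl1 had groups that did not overlap. Mad2l1, the checkpoint protein that inhibits Cdc20, had 5.28, 4.76 and 5.22 with β-gal and 6.53, 5.41 and 6.13 RPKM with Aloxe3 (log2 fold change 0.20, SE 0.068, limma adjusted p = 0.300). Espl1, which encodes separase, the protease that cuts cohesin, had 0.916, 0.828 and 0.984 RPKM against 1.33, 1.03 and 1.21 RPKM (log2 fold change 0.20, SE 0.073, adjusted p = 0.334). Ube2c, which encodes the ubiquitin-conjugating enzyme of the anaphase-promoting complex, had a log2 fold change of 0.21 and an unadjusted p of 0.0404, with replicate 8 (1.81 RPKM) inside the β-gal range. The checkpoint kinases Bub1 (0.09), Bub1b, which encodes BubR1 (0.08), and Ttk, which encodes Mps1 (0.01), all overlapped. Cdc20, the activator of the anaphase-promoting complex, had 2.36, 2.94 and 2.61 with β-gal and 3.04, 2.48 and 2.61 RPKM with Aloxe3, a log2 fold change of 0.03 with a 95% interval from -0.16 to 0.22.

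Centromere and kinetochore genes had a median level of 1.15 RPKM over the 6 tested of 7, against a median of 2.19 RPKM over all 41 and of 6.85 RPKM over all tested genes in β-gal cells. Cenpe, the motor that carries chromosomes to the spindle equator, had 0.662, 0.635 and 0.740 with β-gal and 1.1, 0.850 and 0.891 RPKM with Aloxe3, with no overlap (log2 fold change 0.21, SE 0.074, limma adjusted p = 0.316). The ratio of its means, 1.4, was the second largest of the tested genes after that of Mki67. Spc24 was at 1.86, 2.15 and 1.48 RPKM against 2.18, 2.29 and 2.30 RPKM, also with no overlap (log2 fold change 0.21, SE 0.087). The other subunits of the NDC80 complex, which holds the microtubule, overlapped between groups, with log2 fold changes of 0.09 for Ndc80, 0.09 for Nuf2 and 0.06 for Spc25. Cenpa, the histone H3 variant of the centromere, had a log2 fold change of 0.07 and was lowest of all in Aloxe3 replicate 9 (0.862 RPKM). Cenpf was under the level for a test at 0.420, 0.315 and 0.357 RPKM against 0.490, 0.507 and 0.460 RPKM, with groups that did not overlap.

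The motors and assembly factors of the spindle had log2 fold changes from 0.17 to 0.25 over the 4 tested of 5 genes, and only Tpx2 had groups that did not overlap. Kif4, a chromosome-bound kinesin, had 0.759, 0.923 and 0.711 with β-gal and 1.30, 0.859 and 1.17 RPKM with Aloxe3 (log2 fold change 0.23, SE 0.094, limma adjusted p = 0.382). Kif11, the motor that separates the spindle poles, and Kif2c, which shortens microtubules at faulty attachments, had log2 fold changes of 0.17 and 0.18. Nusap1, a microtubule bundler, was not tested, at 0.420, 0.456 and 0.466 RPKM against 0.608, 0.470 and 0.466 RPKM.

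In the central spindle and cytokinesis group the Aloxe3 libraries lay above all β-gal libraries for 4 of 6 genes, where they did so for 15 of the 41 and for 11.2% of all tested genes. Besides Ect2 these were its activators Kif23 and Racgap1, the subunits of centralspindlin, and Prc1, which bundles the central spindle. Kif23 had 1.66, 1.6 and 1.66 with β-gal and 2.08, 1.92 and 1.81 RPKM with Aloxe3 (log2 fold change 0.15, SE 0.056, limma adjusted p = 0.333). Racgap1 had 1.05, 0.884 and 1.07 RPKM against 1.20, 1.21 and 1.36 RPKM (log2 fold change 0.18, SE 0.067, adjusted p = 0.346), and for Prc1 the log2 fold change came to 0.16 (SE 0.059, adjusted p = 0.336). Anln, which encodes the ring scaffold anillin, had 3.41, 2.96 and 2.92 RPKM against 3.72, 3.11 and 3.72 RPKM, and Kif20a, the kinesin that brings the passenger complex to the midzone, had a log2 fold change of 0.08. Both overlapped between groups.

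Besides Mki67 and Top2a, the genes of chromosome structure were those of condensin, the complex that compacts chromosomes. Its ATPases Smc4 and Smc2 had log2 fold changes of 0.17 and 0.01, and for Smc2 the 95% interval ran from -0.09 to 0.12. Smc4 had 6.43, 5.82 and 6.00 with β-gal and 7.29, 6.35 and 7.28 RPKM with Aloxe3, with replicate 8 inside the β-gal range. Of the condensin I subunits, Ncaph was at 2.55, 2.58 and 2.79 RPKM against 3.35, 2.89 and 3.00 RPKM, with no overlap (log2 fold change 0.16, SE 0.060, limma adjusted p = 0.333). Ncapd2 and Ncapg had log2 fold changes of 0.05 and 0.004 with 95% intervals from -0.05 to 0.16 and from -0.16 to 0.17.

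**Figure D2:**
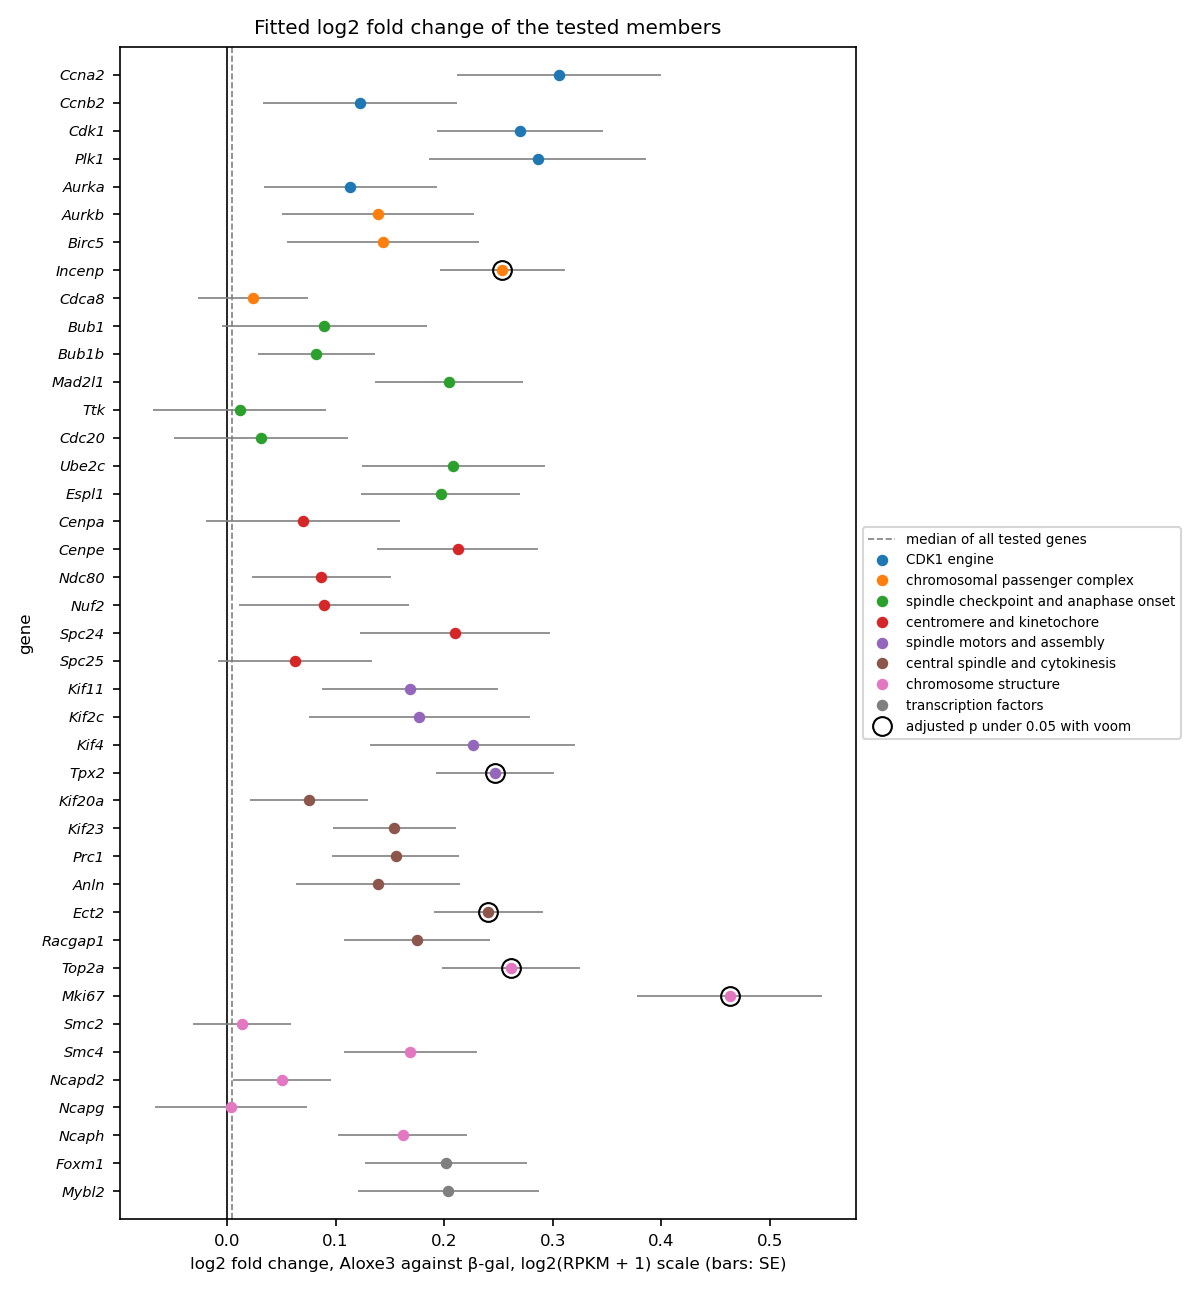
Fitted log2 fold change of the 41 tested genes, Aloxe3 against β-gal on the log2(RPKM + 1) scale, with bars for the SE, colours for the role, a dashed line at the median of all tested genes (0.005) and rings around the 5 genes past an adjusted p of 0.05 with voom. The points run from 0.004 for Ncapg to 0.46 for Mki67.

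The Aloxe3 libraries did not share the pattern evenly. Of the 41 tested genes, 34 were above every β-gal library in Aloxe3 replicate 7, 18 in replicate 8 and 33 in replicate 9, where 31.9%, 35.5% and 31% of all tested genes were. Replicate 8 was the lowest of the Aloxe3 libraries for 31 of the 41, as it was for 26.9% of all tested genes, and for 32 of all 45. The median over the 41 tested genes of log2(RPKM + 1), relative to the β-gal mean, was 0.22, 0.06 and 0.22 for Aloxe3 replicates 7, 8 and 9, and 0.03, -0.04 and -0.01 in the β-gal libraries. The summed level of the 45 genes was 104.9, 99.8 and 100.2 with β-gal and 124.9, 109.1 and 124.2 RPKM with Aloxe3. Without Aloxe3 replicate 8, Mki67 was past the threshold (log2 fold change 0.56, limma adjusted p = 0.0485) and was the only one of the 41 genes that was.

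**Figure D3:**
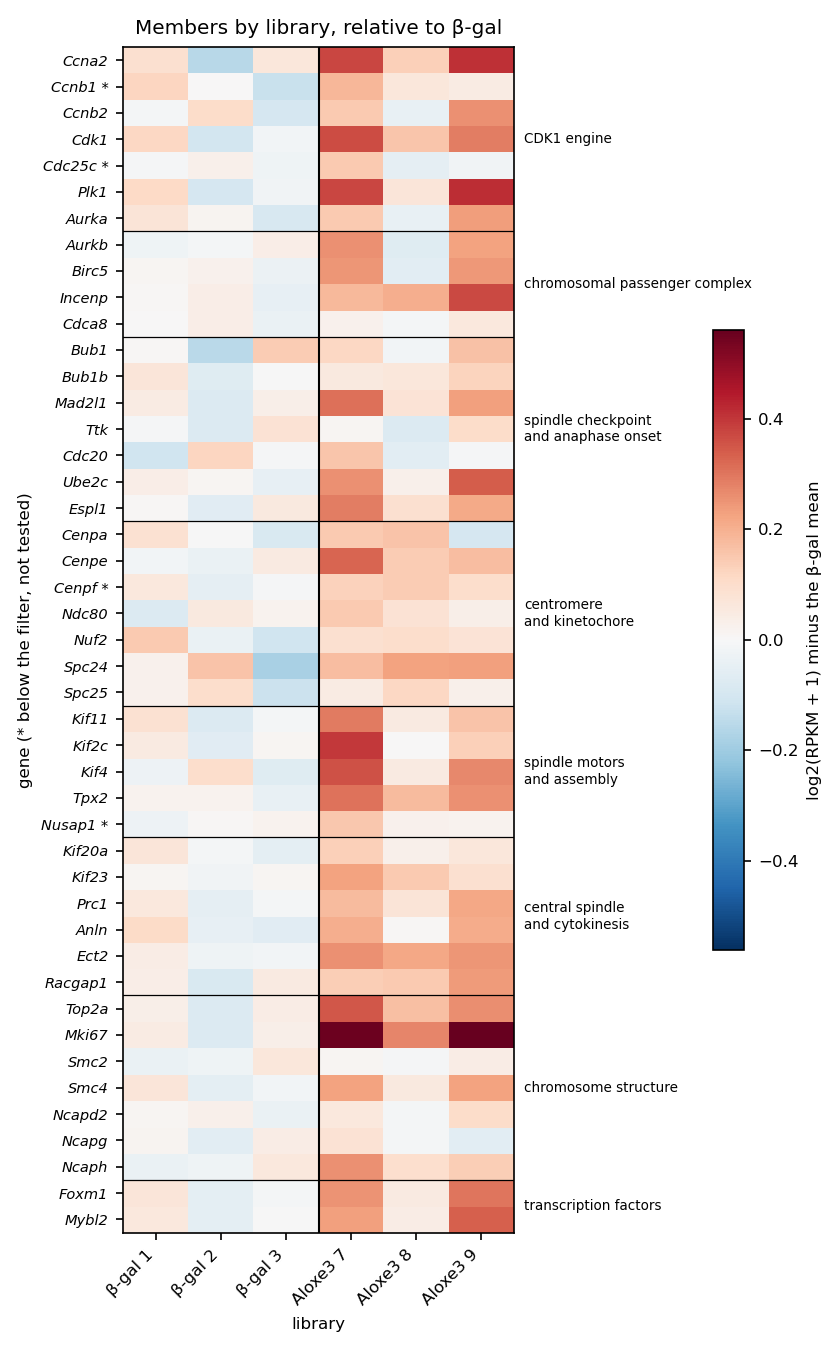
Level of each of the 45 genes (rows, by role) in each library (columns) as log2(RPKM + 1) minus the mean of the β-gal libraries, red above and blue below it, with an asterisk on the 4 genes not tested. The columns of Aloxe3 replicates 7 and 9 are red in most rows, and that of replicate 8 is paler, with the lowest Aloxe3 value in 32 of the 45 rows.

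A further list held 75 mitosis genes, of which 61 were tested. Its median log2 fold change was 0.13 (range -0.11 to 0.35), with 54 genes above 0, 24 higher and 0 lower at an unadjusted p under 0.05, and 0 past the adjusted threshold of limma, although 3 were with voom (Ccnf, Wee1 and Hmmr). The gene with the smallest p was Ccnf, which encodes cyclin F, the substrate receptor of a ubiquitin ligase that acts in S phase and G2. It had 4.52, 4.01 and 4.33 with β-gal and 5.92, 5.43 and 5.86 RPKM with Aloxe3 (log2 fold change 0.35, SE 0.054, limma adjusted p = 0.0544). The 17 subunits and partners of the anaphase-promoting complex, most of which are present through the whole cycle, had a median of -0.03, with 12 below 0, 1 higher and 1 lower at an unadjusted p under 0.05 and 0 past the threshold of limma. The one with the largest difference was Fbxo5, which encodes the inhibitor Emi1 and is itself made at the start of S phase. Its level was 2.48, 2.59 and 2.58 with β-gal and 3.62, 3.33 and 4.16 RPKM with Aloxe3 (log2 fold change 0.40, SE 0.069, adjusted p = 0.0758), and it was past the threshold with voom.

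The DNA replication list served as the point of comparison. Of its 58 genes 57 were tested, with a median log2 fold change of 0.15, 32 genes higher at an unadjusted p under 0.05 and 3 past the adjusted threshold. Chaf1b, a subunit of the chromatin assembly factor, rose from 3.62 ± 0.073 to 5.04 ± 0.13 RPKM (SD, n = 3 each, log2 fold change 0.39, limma adjusted p = 0.0215). Lig1, the ligase that joins Okazaki fragments, rose from 10.4 ± 0.32 to 13.5 ± 0.36 RPKM (adjusted p = 0.0226). Mcm6, of the replicative helicase, rose from 34.1 ± 1.9 to 42.6 ± 1.2 RPKM (adjusted p = 0.0498).

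In the list of 17 G1/S genes 4 were past the threshold, all higher. Ccne2 and Ccne1, which encode the cyclins that start S phase, rose from 1.97 ± 0.18 to 4.05 ± 0.61 RPKM and from 12.4 ± 1.3 to 19.2 ± 1.3 RPKM (SD, n = 3 each, log2 fold change 0.76 and 0.60, adjusted p = 0.025 and 0.027 from limma). Their kinase Cdk2 had a log2 fold change of 0.32 (adjusted p = 0.0226), and E2f7, a repressor of E2F targets that favours polyploidy in hepatocytes, of 0.61 (adjusted p = 0.0304). Among the 12 genes of the DREAM and MuvB complexes, Rbl1, which encodes p107, rose from 3.41 ± 0.15 to 4.58 ± 0.12 RPKM (adjusted p = 0.0332). Of the CDK inhibitors, Cdkn1a, which encodes p21, had 82.3, 84.2 and 81.4 with β-gal and 91.5, 96.6 and 96.3 RPKM with Aloxe3 (log2 fold change 0.20, limma adjusted p = 0.0993), and it was past the threshold with voom (adjusted p = 0.0232). Of the 8 genes past the threshold in these lists, Lig1, Mcm6, Cdk2, E2f7 and Rbl1 were not past it whichever library was left out, with a lowest adjusted p from limma between 0.0623 (E2f7) and 0.103 (Rbl1). Chaf1b, Ccne1 and Ccne2 were past it in at least 1 of those fits (lowest adjusted p = 0.0465, 0.0305 and 0.0415) and lost it in others.

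The median of the mitosis and cytokinesis genes (0.16) stood beside one of 0.15 for the replication genes, while 0 of 41 against 3 of 57 passed the threshold. The 3 became 1 without Aloxe3 replicate 9 and 0 when any other library was left out or no filter was applied, and 2 with a pseudocount of 0.1, a filter at 0.1 RPKM, rescaling, quantile normalization or no trend. With a filter at 5 RPKM, 4 of the 30 still tested passed. The medians of the mitosis and of the replication genes were 0.23 and 0.19 with voom and 0.21 and 0.19 with a pseudocount of 0.1. Their order turned with quantile normalization (0.12 and 0.13). It also turned without β-gal replicate 1 (0.193 and 0.195), Aloxe3 replicate 7 (0.11 and 0.14) or Aloxe3 replicate 9 (0.14 and 0.16). The difference between these lists was not tested. The replication genes had a median level of 5.53 RPKM with β-gal against 2.19 RPKM, and their medians relative to the β-gal mean were 0.07, -0.04 and -0.03 in the β-gal libraries and 0.15, 0.14 and 0.18 in the Aloxe3 libraries. Beside the mitosis genes these medians were closer together among the Aloxe3 libraries (SD 0.021 against 0.090) and farther apart among the β-gal libraries (SD 0.057 against 0.036). With voom, 11 of the 57 replication genes and 5 of the 41 mitosis genes were past the threshold.

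Of the markers of other cells of the liver and blood 0 were past the adjusted threshold of limma and 1 with voom (Cldn4, a tight junction gene, which was lower with a log2 fold change of -0.21), and their part in the result was not tested beyond these levels. The summed level of the 10 Kupffer and macrophage markers was 155 to 161 RPKM in the β-gal libraries and 136 to 151 RPKM in the Aloxe3 libraries, and 2 of the 8 tested were above 0. Most of that sum was Cd68, a lysosomal glycoprotein of macrophages, with 149, 147 and 149 RPKM against 129, 129 and 141 RPKM (log2 fold change -0.15, limma adjusted p = 0.262), while no other gene of the list had a mean above 2.06 RPKM with β-gal. That of the 10 endothelial markers was 41.4 to 48.1 RPKM and 41.7 to 47.0 RPKM, with 5 of the 8 tested above 0, and the smallest p was that of Tie1 (log2 fold change -0.10, limma adjusted p = 0.467). For the 10 stellate and fibroblast markers it was 4.63 to 5.13 RPKM and 4.49 to 5.01 RPKM, with 0 of the 3 tested above 0, and Acta2 had the smallest p (log2 fold change -0.10, limma adjusted p = 0.540). The sum for the 10 lymphocyte and leukocyte markers did not exceed 0.737 RPKM in any library, and Ms4a1 and Nkg7 were listed at 0 throughout. The 6 cholangiocyte markers summed to 2151 to 2198 RPKM and 2099 to 2263 RPKM, and the 11 hepatocyte markers in the table to 5107 to 5138 RPKM and 4932 to 5098 RPKM. The 5 erythroid markers summed to at most 4.53 RPKM, and the 1 tested, Alas2, had a log2 fold change of -0.01 (limma adjusted p = 0.967). Cps1, the first enzyme of the urea cycle, had the smallest p of the hepatocyte markers, with a mean of 0.985 with β-gal and 1.5 RPKM with Aloxe3 (log2 fold change 0.33, limma adjusted p = 0.161), and was past the threshold with voom (adjusted p = 0.0138).

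**Figure D4:**
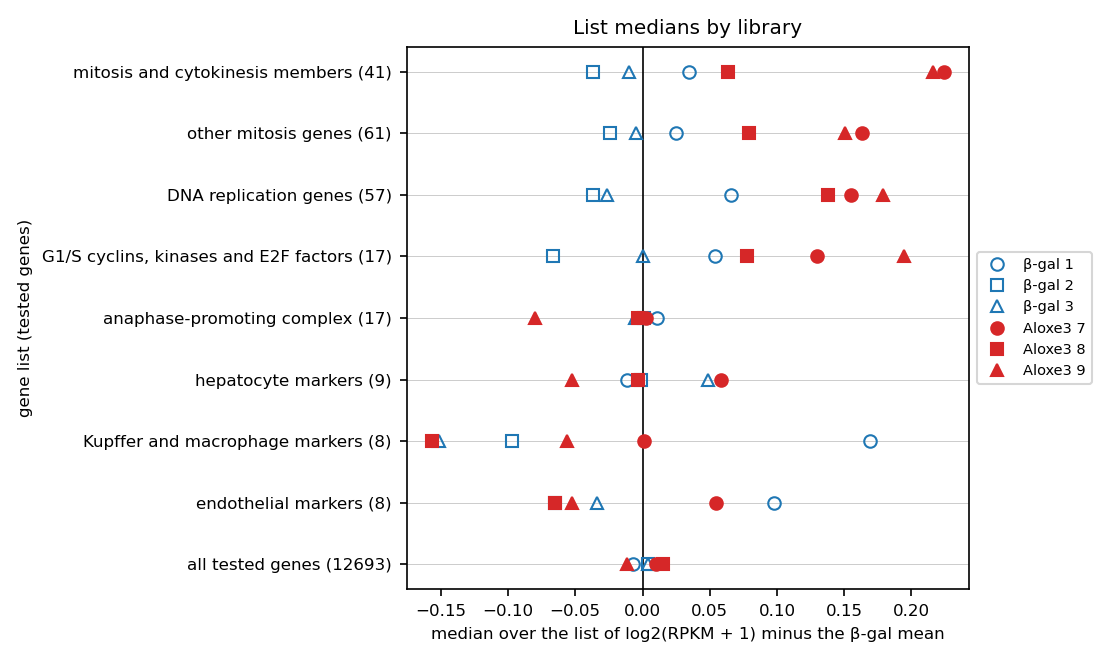
Median over each gene list of log2(RPKM + 1) minus the β-gal mean, 1 point per library (open blue symbols for β-gal, filled red for Aloxe3), with the number of tested genes in brackets. For the mitosis and cytokinesis genes the red points lie at 0.22, 0.06 and 0.22 and for the DNA replication genes at 0.15, 0.14 and 0.18, while for all tested genes every point lies close to 0.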

How the data were processed

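RNA-seq of 6 libraries was analysed, 3 with β-gal and 3 with Aloxe3, grouped by their labels. The authors sequenced poly-A selected RNA as single reads of 50 bases, aligned them with STAR 2.0.4b, used featureCounts 1.4.5 to count reads that aligned to 1 place and 1 gene and deposited RPKM values per gene. The labels name GRCm38.p2 as the build. The step from counts to RPKM, and any test per gene, are not given in the sources used here. Library preparation did not keep strand, and 10 of the 45 genes share exon sequence with a protein-coding gene on the opposite strand, where ambiguous reads were not counted.

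Of 41388 Ensembl identifiers, 40340 were matched to GENCODE M21 for symbols and coordinates. Genes whose mean over the 6 libraries reached 0.5 RPKM were tested on log2(RPKM + 1) with limma 3.58.1 (R 4.3.3, eBayes with trend, two-sided, no covariates), with Benjamini-Hochberg adjustment over all 12693 tested genes and a threshold of 0.05. Whole reads were derived from the steps of the RPKM values and tested with voom as an alternative. The derived reads made up 99.946% to 99.948% of the library sizes. For 22 of the 45 genes reads are at the annotated length and for 23 up to a common factor. Every pair of replicates differed by more than sampling noise. Other alternatives were a pseudocount of 0.1, no filter, filters at 0.1 and 5 RPKM, quantile normalization, scaling of the libraries to 1 common median, eBayes without trend and each library left out. Scripts were tested on simulated data.

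The 45 genes and the comparison lists were chosen with earlier results of these data known. All 45 are named. From each other list the text names the genes past the threshold or otherwise the tested gene with the smallest p. Wee1 and Hmmr, which passed with voom, and further cell markers were chosen after their values were seen.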

Additional observations from a re-analysis of the deposited data

How the results depend on the processing

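The number of genes past the threshold over all tested genes (50) was 7 with no filter on low values, 19 with a filter at 0.1 RPKM and 174 with voom on the derived reads, and 6 to 19 when 1 library was left out. Of the mitosis and cytokinesis genes 0 were past it, but 5 were with voom, and 0 to 1 when 1 library was left out, the 1 being Mki67 without Aloxe3 replicate 8. Their median log2 fold change (0.16) was 0.23 with voom and 0.11 to 0.21 when 1 library was left out. Quantile normalization gave log2 fold changes below 0 for Cdca8 (-0.0098), Ttk (-0.025), Cdc20 (-0.0012), Smc2 (-0.0025) and Ncapg (-0.032), and rescaling to the same median did so for Ncapg (-0.0023). When 1 library was left out, the log2 fold change ran from -0.034 to 0.056 for Ttk, from -0.032 to 0.091 for Cdc20, from -0.0052 to 0.045 for Smc2 and from -0.034 to 0.034 for Ncapg. The cause of these differences was not tested. No paired analysis was possible because the replicate numbers of the groups (1 to 3 and 7 to 9) are not shared. Low counts limit Cdc25c (10 to 17 derived reads per library) and Ccnb1 (12 to 41) most.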
